A study of Mus musculus with 18 samples.

Results

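The 10 genes described here belong to the lysosomal control of the MiT/TFE transcription factors, measured in 3 mouse cancer cell lines given sildenafil citrate. They were the 4 factor genes Mitf, Tfeb, Tfe3 and Tfec, the glycoprotein gene Gpnmb, the folliculin gene Flcn with its partner genes Fnip1 and Fnip2, and the Rag GTPase genes Rragc and Rragd. Their 10 rows were found by symbol among the 55450 gene rows of the count table, and none of the 10 symbols had a second row. Rows were taken by symbol, and the set itself was chosen with earlier results of these data known. RNA was sequenced from wild-type 4T1 (labelled breast carcinoma), MC38 (labelled colon) and LLC (labelled lung) cells grown in culture. Sildenafil citrate, which blocks the cGMP-degrading enzyme PDE5, was given at 100 µM to the cells of 3 libraries per line, and the solvent DMSO to the control cells of 3 more. LLC was treated for 48 hours, the other lines for 24 hours, and 4T1 was kept in another medium than MC38 and LLC. Line and time thus cannot be told apart where LLC is compared with another line. Line and medium cannot be told apart where 4T1 is compared with another line. The labels do not tell whether a group's libraries stem from separate cultures, and the p-values then measure a spread that may be technical.

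MITF, TFEB, TFE3 and TFEC are related basic helix-loop-helix leucine zipper factors that bind E-box sequences and switch on genes of lysosomes, autophagy and, in pigment cells, melanin synthesis. In fed cells Rag GTPases on the lysosome bring these factors to the kinase complex mTORC1, which phosphorylates them and so holds them in the cytoplasm. Folliculin, bound to FNIP1 or FNIP2, is the GTPase-activating protein of RagC and RagD and is needed for this step, and its loss lets the factors enter the nucleus. GPNMB is a membrane glycoprotein of melanosomes, macrophages and osteoclasts whose gene is a widely used readout of MiT/TFE activity. The genes of folliculin, FNIP proteins and RagC or RagD are themselves described as targets of the factors, so the set holds regulators as well as targets.

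Because the factors recognise E-boxes, the bases before the start sites of the 10 genes were searched for CACGTG on both strands. RefSeq promoter windows of 300 bases (GRCm38.p6, 250 before and 50 after a start) were held for all 10 genes, 15 windows in all. The E-box was found in 2 of the 15, those of Fnip1 (first base 75 bases before the start) and Rragc (112 bases before), and in 7.15% of all 32851 windows in the RefSeq table. In both genes the E-box was followed by the same bases, and this run of 9 bases, CACGTGATA, occurred in 0.128% of all windows. That is 42 windows, where the E-box itself was in 2349. The run was read off these same windows of Fnip1 and Rragc, so its share does not measure how unusual the match is. The longer palindrome TCACGTGA, which contains the E-box and stood in 0.974% of all windows, and the M-box core CATGTG, in 14.2%, were in none of the 15. A match describes letters and does not show binding, and its lack says only that these letters are not in the window. The 250 bases before the start are printed for the pair that share the E-box run and for Gpnmb, the gene with the largest fitted rise in each line, with the E-box in capitals.
Fnip1 (chr11:54437929-54438178, plus strand): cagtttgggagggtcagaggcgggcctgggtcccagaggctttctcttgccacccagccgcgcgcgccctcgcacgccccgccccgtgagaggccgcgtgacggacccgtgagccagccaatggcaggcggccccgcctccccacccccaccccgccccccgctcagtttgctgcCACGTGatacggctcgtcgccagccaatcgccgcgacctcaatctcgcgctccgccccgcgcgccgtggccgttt
Rragc (chr4:123917183-123917432, plus strand): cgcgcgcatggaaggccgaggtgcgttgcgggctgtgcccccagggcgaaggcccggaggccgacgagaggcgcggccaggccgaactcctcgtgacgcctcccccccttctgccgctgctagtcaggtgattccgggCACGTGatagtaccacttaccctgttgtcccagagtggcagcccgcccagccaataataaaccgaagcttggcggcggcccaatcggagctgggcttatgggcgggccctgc
Gpnmb (chr6:49036268-49036517, plus strand): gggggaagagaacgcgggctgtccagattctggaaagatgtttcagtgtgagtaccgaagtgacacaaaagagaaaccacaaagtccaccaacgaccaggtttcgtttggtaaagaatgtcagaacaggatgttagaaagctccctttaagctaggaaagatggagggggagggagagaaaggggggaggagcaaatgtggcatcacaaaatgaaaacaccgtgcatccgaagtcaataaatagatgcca

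The 6 libraries of 4T1 held 41070021 to 61600646 counts each, those of MC38 29438187 to 36417399, and those of LLC 26348654 to 32129771. LLC control replicate 3 stood apart from the other LLC controls, with a chi-square per degree of freedom of 53.0 and 44.6 against them, where every other pair of libraries in a group gave 2.87 to 15.5. The noncoding gene Gm26917 ran from 232 to 265 CPM in sildenafil and 153 to 159 CPM in control libraries of 4T1. Its range was 5064 to 6203 against 9376 to 14803 CPM in MC38, and 5852 to 13768 against 9660 to 29464 CPM in LLC. All 10 epithelial markers averaged at least 1 CPM in both 4T1 groups, against 3 of 10 in MC38 and 1 of 10 in LLC, where Krt8 alone did so. Epcam was at 0 in every MC38 and LLC library. The colon factors Cdx1 and Cdx2, the lung genes Nkx2-1 and Sftpc and the mammary gene Elf5 were at 0 in all 18 libraries. The colon gene Lgals4 averaged 0.937 CPM in MC38 and 0.577 CPM in LLC controls, and the mammary gene Gata3 60.6 CPM in 4T1 controls. In these bulk cultures, more transcript per cell and more cells of one state cannot be told apart.

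Most of the measured genes of the set rose with sildenafil in 4T1, and none fell by the test in any line. In 4T1, 7 of the 8 tested genes other than Rragd rose and 0 fell, against 33.5% of all 13914 genes higher and 33.3% lower. Rragd, a ninth tested gene in 4T1 and also called there, is set apart because it passed the filter on low counts through its higher, sildenafil group. In MC38, 5 of the 8 tested rose and 0 fell, against 19.5% of all 13363 genes higher and 18.3% lower. In LLC, 4 of the 9 tested rose and 0 fell, against 15.1% of all 13561 genes higher and 12.2% lower. Gpnmb, Flcn, Fnip2 and Rragc were called in each of the 3 lines. The median log2 fold change of the tested genes was 0.44 in 4T1 (0.46 with Rragd), 0.22 in MC38 and 0.18 in LLC, beside 0.0023, 0.0040 and -0.0062 over all genes tested. A gene was called at a Benjamini-Hochberg adjusted p under 0.05 in edgeR's quasi-likelihood test, each line fitted alone, and values are log2 fold changes of sildenafil over control ± SE with n = 3 libraries per group. Every sildenafil library lay above every control library for 8 of the 8 genes other than Rragd in 4T1, 8 of 8 in MC38 and 6 of 9 in LLC, as it did for 35.7%, 25.3% and 23.3% of all genes tested in these lines. With the Gm26917 level as a covariate the count called was 1 of 9 in 4T1 (Gpnmb) and 2 of 8 in MC38 (Gpnmb and Fnip1). In LLC it was 3 of 9 (Gpnmb, Fnip2 and Rragc). Of all genes these fits called 1189 of 13914 in 4T1, 1027 of 13363 in MC38 and 2279 of 13561 in LLC, in either direction. Treatment itself accounted for 96.7% of the variance of the Gm26917 level in 4T1, 85% in MC38 and 46.4% in LLC. In LLC the count was 2 without control replicate 1 or without sildenafil replicate 2 (Gpnmb and Rragc in both cases). It was 6 without control replicate 3, where 5 rose and Tfe3 fell. That last fit called 5994 of all genes in either direction, against 3702 of 13561 with no library left out.

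**Figure D1:**
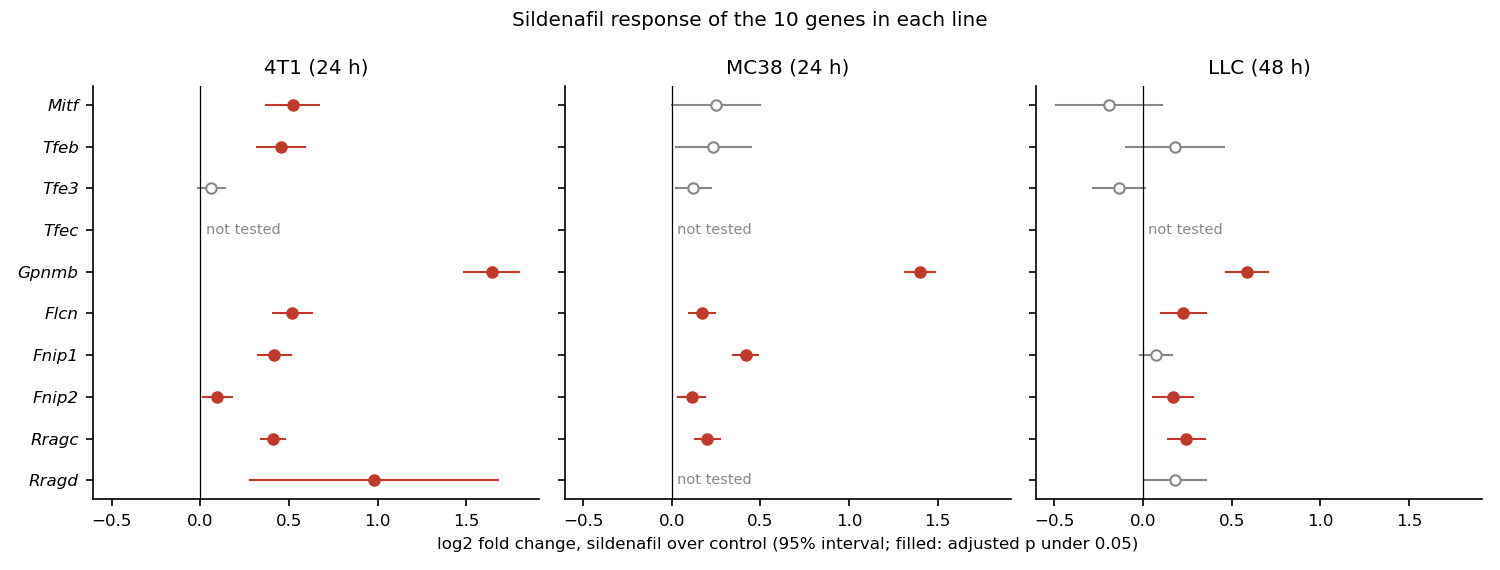
Log2 fold change of each of the 10 genes, sildenafil over control, with its 95% interval, in 4T1 and MC38 (24 hours) and LLC (48 hours); filled points have an adjusted p under 0.05. Gpnmb lies farthest to the right in every line, at 1.64, 1.40 and 0.59, and in LLC the points of Mitf and Tfe3 lie left of 0 and are open.

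Gpnmb, on chromosome 6 (49036546 to 49070929, plus strand, GRCm38), had the largest fitted rise of the set in every line. In 4T1 it stood at 39.6, 41.0 and 48.1 CPM in sildenafil libraries and 13.7, 13.3 and 14.1 CPM in control libraries. In MC38 it stood at 81.2, 82.1 and 79.0 CPM in sildenafil libraries and 29.4, 31.7 and 30.6 CPM in control libraries. In LLC it stood at 762, 788 and 809 CPM in sildenafil libraries and 503, 521 and 547 CPM in control libraries. The lowest sildenafil library lay above the highest control library in every line, and the LLC libraries of both groups lay above those of both other lines. The log2 fold change was 1.64 ± 0.0711 in 4T1 (adjusted p = 1.06e-09), 1.40 ± 0.0404 in MC38 (adjusted p = 4.29e-13) and 0.59 ± 0.0523 in LLC (adjusted p = 7.09e-05). These are rises of 3.12-fold, 2.64-fold and 1.50-fold. Counted from the largest rise down they ranked 293 of 13914 genes in 4T1, 36 of 13363 in MC38 and 431 of 13561 in LLC. A larger change in either direction was seen for 2.20%, 0.359% and 10.3% of these genes. The call held in each line under every alternative tried, the left-out libraries and the Gm26917 covariate included.

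Since GPNMB is also a gene of macrophages, osteoclasts and pigment cells, their markers were read in the same libraries. The 12 leukocyte markers summed to 46.9 to 47.7 CPM in sildenafil and 15.5 to 16.6 CPM in control libraries of 4T1 (scaled over the 18 libraries), to 26.3 to 27.4 against 16.6 to 16.9 CPM in MC38, and to 11.8 to 13.2 against 9.44 to 10.1 CPM in LLC. In 4T1 most of this sum was Cd68, a lysosomal membrane protein gene (37.5 ± 0.567 CPM with sildenafil, 9.74 ± 0.229 CPM in control, SD), and in the 4T1 fit it rose by 1.93 ± 0.0471 (adjusted p = 2.13e-12). Few of the 12 had enough counts to be tested: 2 of 3 tested rose in 4T1 (Cd68 and Cd14), 3 of 4 in MC38 (Cd14, Csf1r and Cd68) and 1 of 4 in LLC (Lyz2), against 33.5%, 19.5% and 15.1% of all genes. Tyrobp was at 0 in all 18 libraries, and Ptprc, the common leukocyte antigen CD45, had at most 8 counts in a library. The 12 melanocyte markers summed to 8.21 to 8.50 CPM against 7.51 to 8.59 CPM in 4T1, 9.77 to 11.9 against 8.06 to 9.48 CPM in MC38, and 2.94 to 4.08 against 3.42 to 3.82 CPM in LLC, mostly Rab27a, while the melanin enzymes Tyr and Tyrp1 were at 0 throughout. Of the 9 osteoclast markers, summing to 65.7 to 71.0 against 60.1 to 62.8 CPM in 4T1, 10.1 to 11.1 against 10.4 to 12.1 CPM in MC38 and 0.747 to 1.21 against 0.677 to 0.808 CPM in LLC, Calcr was at 0 throughout. In 4T1 that sum was mostly Mmp9, a matrix protease gene that rose by 0.18 ± 0.0552 (adjusted p = 0.0122), and Acp5, the gene of tartrate-resistant acid phosphatase (0.07 ± 0.0467, adjusted p = 0.189). The 8 fibroblast markers summed to 51.6 to 59.8 CPM with sildenafil against 26.6 to 29.1 CPM in control in 4T1, 598.6 to 606.6 against 608 to 628 CPM in MC38, and 145 to 156 against 67.6 to 76.6 CPM in LLC. The growth factor receptor gene Pdgfra rose by 0.95 ± 0.0610 in 4T1, 0.29 ± 0.0616 in MC38 and 1.07 ± 0.0544 in LLC, and Pdgfrb by 0.35 ± 0.0597 in MC38 and 0.83 ± 0.0997 in LLC, while the collagen gene Col1a1 fell by 0.66 ± 0.0887 in MC38. Among these markers Lum was at 0 throughout 4T1, Thy1 throughout MC38 and Fap throughout LLC. The 10 epithelial markers summed to 2380.3 to 2483 against 2888 to 2989.7 CPM in 4T1, where 4 rose and 5 fell, to 2108 to 2263 against 2611 to 2672 CPM in MC38, and to 182 to 189 against 203 to 228 CPM in LLC. The 10 lineage markers, mostly Esr1 and Gata3 in 4T1 and Esr1 in the other lines, summed to 91.6 to 97.9 against 69.9 to 75.9 CPM in 4T1, 14.1 to 14.8 against 12.8 to 13.6 CPM in MC38, and 11.4 to 12.4 against 12.5 to 15.3 CPM in LLC. The leukocyte sum was thus higher with sildenafil in all 3 lines, the fibroblast sum higher in 4T1 and LLC, and the epithelial sum lower in all 3. Few genes made up these sums. The fibroblast sum was mostly Pdgfra in 4T1 (53.9 against 27.5 CPM) and in LLC (127 against 59.9 CPM), where Col1a2 averaged 0.196 CPM or less. The epithelial sum was mostly Krt8 in MC38 (2118 against 2547 CPM) and LLC (186 against 212 CPM), while Cldn4 was not called in MC38. The part of these markers in the rise of Gpnmb was not tested.

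**Figure D2:**
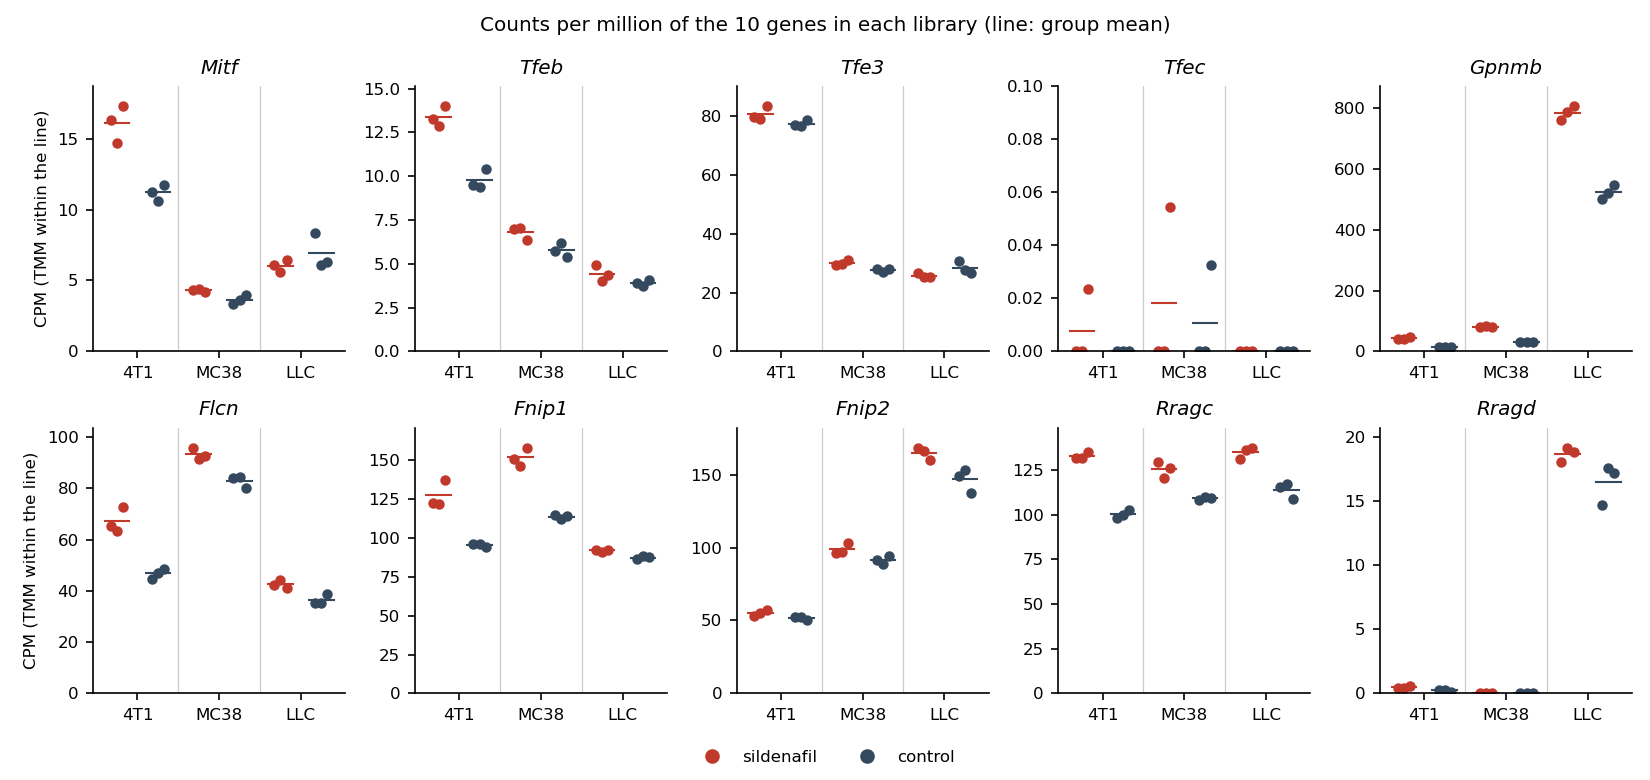
CPM of each of the 10 genes in every library (TMM scaling within the line), sildenafil left of control in each line, with short lines at the group means. The Gpnmb panel shows LLC far above the other lines, at 762 to 809 CPM with sildenafil and 503 to 547 CPM in control, and the Rragd panel shows MC38 at 0.

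Flcn, the folliculin gene on chromosome 11 (59791408 to 59810016, minus strand), rose in all 3 lines, most in 4T1. It had 65.4, 63.5 and 72.6 CPM in 4T1 sildenafil libraries and 44.7, 47.0 and 48.7 CPM in 4T1 controls, a change of 0.52 ± 0.0506 (adjusted p = 9.96e-07). The MC38 libraries had 95.9, 91.3 and 92.5 CPM with sildenafil and 84.1, 84.4 and 79.9 CPM in control, a change of 0.17 ± 0.0346 (adjusted p = 0.00112). The LLC libraries had 42.4, 44.0 and 41.2 CPM with sildenafil and 35.3, 35.1 and 38.6 CPM in control, a change of 0.23 ± 0.0565 (adjusted p = 0.0153). Sildenafil and control libraries did not overlap in any line. The LLC call was lost without control replicate 1 (adjusted p = 0.0653), control replicate 2 (0.0520) or sildenafil replicate 2 (0.0679), and in edgeR with the Gm26917 covariate (0.106).

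Of the partner genes of folliculin, Fnip1 rose in 4T1 and MC38, and Fnip2 rose by at most 0.17 in any line. Fnip1, on chromosome 11 (54438199 to 54518235, plus strand) and carrying the promoter E-box printed above, had 123, 122 and 137 CPM in 4T1 sildenafil libraries and 95.8, 95.8 and 94.2 CPM in 4T1 controls. MC38 libraries held 151, 146 and 158 CPM with sildenafil and 115, 112 and 114 CPM in control. LLC libraries held 92.1, 91.0 and 92.4 CPM with sildenafil and 86.1, 88.1 and 87.7 CPM in control. The groups stood clear of each other in every line, but by a narrow margin in LLC. The changes of Fnip1 were 0.42 ± 0.0434 in 4T1 (adjusted p = 1.57e-06) and 0.42 ± 0.0332 in MC38 (adjusted p = 1.51e-07), nearly the same, while 0.07 ± 0.0414 in LLC did not pass (adjusted p = 0.211, 95% interval -0.02 to 0.17).

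Fnip2, on chromosome 3 (79455974 to 79567796, minus strand), had 53.4, 55.1 and 57.5 CPM in 4T1 sildenafil libraries and 52.2, 52.6 and 50.3 CPM in 4T1 controls. In MC38 it had 96.2, 96.9 and 103 CPM with sildenafil and 91.2, 88.7 and 94.2 CPM in control. In LLC, where it was highest, it had 169, 166 and 160 CPM with sildenafil and 149, 154 and 138 CPM in control. The changes were 0.10 ± 0.0381 in 4T1 (adjusted p = 0.0412), 0.11 ± 0.0364 in MC38 (adjusted p = 0.0235) and 0.17 ± 0.0514 in LLC (adjusted p = 0.0356). Each of these calls was lost when certain single libraries were left out, 5 of 6 in 4T1 (adjusted p up to 0.184), 3 of 6 in MC38 (up to 0.105) and 4 of 6 in LLC (up to 0.115), and DESeq2 made the call in LLC but not in 4T1 (0.0883) or MC38 (0.0713). Per length of exon the ratio of Fnip1 to Fnip2 ran from 2.60 to 2.81 with sildenafil and 2.14 to 2.20 in control in 4T1. It ran from 1.77 to 1.84 against 1.42 to 1.49 in MC38 and from 0.642 to 0.679 against 0.675 to 0.749 in LLC. The log2 ratio changed by 0.32 in 4T1 and 0.31 in MC38 (exact two-sided permutation p = 0.1 each, the smallest that 3 against 3 libraries can give) and by -0.10 in LLC (exact p = 0.3).

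Rragc, the RagC gene on chromosome 4 (123917446 to 123936997, plus strand), rose in all 3 lines. It had 132, 132 and 135 CPM in 4T1 sildenafil libraries and 98.2, 99.6 and 103 CPM in 4T1 controls, a change of 0.41 ± 0.0311 (adjusted p = 6.90e-08). In MC38 it had 130, 120 and 126 CPM with sildenafil and 108, 110 and 109 CPM in control, a change of 0.20 ± 0.0330 (adjusted p = 0.000189). In LLC it had 131, 136 and 138 CPM with sildenafil and 116, 117 and 109 CPM in control, a change of 0.24 ± 0.0467 (adjusted p = 0.00466). No sildenafil library of any line lay within its control range. Of the Rragc exon bases 264 (7.90%) are shared with 4930535I16Rik on the opposite strand, and as the strand setting of the counting is not given, reads there may not have been told apart. No other gene of the set shares exon bases with an annotated gene.

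Rragd, the RagD gene on chromosome 4 (32983037 to 33022180, plus strand), was found mainly in LLC. In LLC it had 18.0, 19.1 and 18.8 CPM with sildenafil and 14.6, 17.6 and 17.1 CPM in control. These groups did not overlap, but the change of 0.18 ± 0.0790 did not pass (adjusted p = 0.114) except without control replicate 3 (0.22, adjusted p = 0.0400). In 4T1 it had 23 to 26 counts per sildenafil library (0.415 to 0.566 CPM) and 6 to 15 counts per control library (0.148 to 0.287 CPM), close to the minimum of the filter on low counts, which the sildenafil group met. Because that group let it into the fit, the fitted 4T1 change of 0.98 ± 0.323 is a description only. With all genes kept, where no filter chose it, the value was 0.99 (adjusted p = 0.0185). The filtered fit, at an adjusted p of 0.0163, lost the call without control replicate 3 (0.0715) or sildenafil replicate 3 (0.0541), and DESeq2 did not make it (0.0605). In MC38 no read was counted in any of the 6 libraries, which allows up to 0.0316 CPM over the sildenafil group and 0.0339 CPM over the control group at 3 counts.

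Among the factor genes, Mitf and Tfeb rose in 4T1 and no factor gene passed the test in MC38 or LLC. Mitf, the founding member of the family on chromosome 6 (97807052 to 98021349, plus strand), had 16.3, 14.7 and 17.3 CPM in 4T1 sildenafil libraries and 11.2, 10.6 and 11.7 CPM in 4T1 controls, a change of 0.52 ± 0.0686 (adjusted p = 1.45e-05). In MC38 it had 4.34, 4.43 and 4.18 CPM with sildenafil and 3.33, 3.62 and 3.95 CPM in control (0.25 ± 0.117, adjusted p = 0.110). In LLC it had 6.12, 5.60 and 6.42 CPM with sildenafil and 8.32, 6.10 and 6.31 CPM in control (-0.19 ± 0.134, adjusted p = 0.302). The groups stood apart in 4T1 and MC38 and overlapped in LLC, where control replicate 1 was the highest library.

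Tfeb, which drives lysosome and autophagy genes (chromosome 17, 47737030 to 47792419, plus strand), had 13.2, 12.9 and 14.02 CPM in 4T1 sildenafil libraries and 9.50, 9.37 and 10.4 CPM in 4T1 controls, a change of 0.46 ± 0.0630 (adjusted p = 2.27e-05). In MC38 it had 6.98, 7.05 and 6.36 CPM with sildenafil and 5.71, 6.21 and 5.38 CPM in control (0.24 ± 0.0998, adjusted p = 0.0767). In LLC it had 4.93, 4.01 and 4.35 CPM with sildenafil and 3.90, 3.74 and 4.07 CPM in control (0.18 ± 0.123, adjusted p = 0.292). Only the LLC groups overlapped. The MC38 value passed with the stricter filter (adjusted p = 0.0457) and among protein-coding genes alone (0.0484).

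Tfe3, the most abundant factor transcript (chromosome X, 7762560 to 7775202, plus strand), had 79.6, 79.2 and 83.6 CPM in 4T1 sildenafil libraries and 76.9, 76.7 and 78.7 CPM in 4T1 controls (0.06 ± 0.0347, adjusted p = 0.139, 95% interval -0.01 to 0.14). In MC38 it had 29.4, 29.9 and 31.1 CPM with sildenafil and 28.2, 26.9 and 28.0 CPM in control (0.12 ± 0.0461, adjusted p = 0.0501). In LLC it had 26.8, 25.4 and 25.2 CPM with sildenafil and 30.8, 27.7 and 26.6 CPM in control (-0.14 ± 0.0662, adjusted p = 0.153). The groups overlapped in LLC and not in 4T1 or MC38, and the MC38 value lay at the threshold. Tfe3 passed as higher in 4T1 with library totals alone (adjusted p = 0.00687) or the stricter filter (0.0328), as higher in MC38 with library totals alone (0.0262), the stricter filter (0.0395) or protein-coding genes alone (0.0419), and as lower in LLC without control replicate 3 (-0.17, 0.0388). Tfec, the fourth factor gene (chromosome 6, 16833373 to 16898441, minus strand), had 0 to 2 counts per library and was not tested. Its counts summed to 1 with sildenafil and 0 in control in 4T1, 2 and 1 in MC38, and 0 and 0 in LLC.

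The response of several of these genes differed between lines when the difference itself was tested over all 18 libraries. LLC minus 4T1 was called below 0 for 6 of the 8 tested genes other than Rragd and above 0 for none. Of all 16040 genes, 20.2% had a lower response in LLC. Rragd is set apart here too, with 6 to 15 counts per control and 23 to 26 per sildenafil library of 4T1. The differences were -1.06 ± 0.0771 for Gpnmb (adjusted p = 2.47e-10), -0.71 ± 0.140 for Mitf (adjusted p = 0.000229) and -0.34 ± 0.0578 for Fnip1 (adjusted p = 3.78e-05). Flcn (-0.29), Tfe3 (-0.20) and Rragc (-0.16) also had a smaller or opposite value in LLC (adjusted p from 0.00187 to 0.0188). The fitted Rragd difference of -0.79 ± 0.274 (adjusted p = 0.0269) is a description only. For Tfeb (-0.28 ± 0.126, adjusted p = 0.0876) and Fnip2 (0.07 ± 0.0603, adjusted p = 0.374) no difference was shown. The calls of Tfe3, Rragc and Rragd were lost when certain single libraries were left out. With all genes kept Tfe3 (adjusted p = 0.0977) and Rragc (0.131) were lost, and with the Gm26917 covariate Mitf (0.103), Tfe3 (0.899) and Rragc (0.110) were lost while the Fnip2 difference of 0.20 passed (0.0339). The Tfeb difference passed with library totals alone (0.0390), the stricter filter (0.0324) or protein-coding genes alone (0.0409).

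LLC minus MC38 was called below 0 for 3 of 8 tested genes, against 9.68% of all genes. These were Gpnmb (-0.80 ± 0.0752, adjusted p = 5.94e-08), Fnip1 (-0.33 ± 0.0580, adjusted p = 0.000228) and Tfe3 (-0.24 ± 0.0695, adjusted p = 0.0147). The Tfe3 call was lost without LLC control replicate 1 (0.0876) and with all genes kept (0.0597), and Mitf (-0.42, adjusted p = 0.0647) passed without LLC control replicate 3 (0.0286). Both comparisons with LLC are also comparisons of 48 with 24 hours. Between the lines treated for 24 hours, MC38 minus 4T1 was called below 0 for 3 of 8 tested genes, against 16.7% of all genes. Flcn responded less in MC38 (-0.36 ± 0.0685, adjusted p = 0.000191), as did Rragc (-0.22 ± 0.0516, adjusted p = 0.00153) and Gpnmb (-0.26 ± 0.0813, adjusted p = 0.0161). The Gpnmb difference was lost without 4T1 control replicate 2 (0.0514) or MC38 control replicate 2 (0.0523). The Fnip1 responses differed by -0.01 ± 0.0570 (95% interval -0.13 to 0.10), and those of Fnip2 by 0.00074 ± 0.0612 (-0.13 to 0.13).

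In control cells the lines differed in most genes of the set, and so did most genes overall. LLC controls differed from 4T1 controls in 7 of 8 tested genes other than Rragd, 3 higher and 4 lower, against 86.7% of 15385 genes in either direction. LLC and MC38 controls differed in 6 of 8, 3 higher and 3 lower in LLC, against 77.2%, and MC38 and 4T1 controls in 8 of 8, 5 higher and 3 lower in MC38, against 84.5%. Gpnmb was higher in LLC by 5.38 ± 0.0519 than in 4T1 (41.5-fold, adjusted p = 3.84e-17) and by 4.02 ± 0.0486 than in MC38 (16.3-fold, adjusted p = 2.74e-16), and higher in MC38 than in 4T1 by 1.35 ± 0.0492. Rragd, which passed the filter among controls through LLC alone, had 14.6 to 17.6 CPM in LLC and 0.148 to 0.287 CPM in 4T1 controls, a fitted difference of 6.23 ± 0.178 given as a description. Over the group, Rragd in LLC was at least 587-fold higher with sildenafil and at least 477-fold higher in control than in MC38, set against the level of 3 counts.

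The factor genes were highest in 4T1 controls. Tfe3 was lower by 1.33 ± 0.0516 on the log2 scale in LLC and by 1.29 ± 0.0514 in MC38, and Tfeb by 1.20 ± 0.0936 in LLC and 0.56 ± 0.0885 in MC38. Mitf was lower than in 4T1 by 0.57 ± 0.112 in LLC and by 1.43 ± 0.120 in MC38, and higher in LLC than in MC38 by 0.85 ± 0.128. Flcn was higher in MC38 than in 4T1 by 1.02 ± 0.0490, and LLC lay below MC38 (-1.26 ± 0.0507) and 4T1 (-0.24 ± 0.0505). Fnip2 was higher in LLC than in MC38 by 0.61 ± 0.0457 and than in 4T1 by 1.63 ± 0.0467. Fnip1 was higher in MC38 than in 4T1 by 0.45 ± 0.0342 (adjusted p = 2.73e-08), and LLC lay below MC38 (-0.45 ± 0.0346, adjusted p = 3.25e-08). Rragc was higher than in 4T1 by 0.31 ± 0.0384 in LLC (adjusted p = 4.55e-06) and 0.32 ± 0.0383 in MC38 (adjusted p = 2.97e-06). No difference was shown in 3 pairs, where Fnip1 in LLC and 4T1 differed by -0.0049 ± 0.0344 (95% interval -0.08 to 0.07), Rragc in LLC and MC38 by -0.02 ± 0.0385 (-0.10 to 0.07), and Tfe3 in LLC and MC38 by -0.04 ± 0.0542 (-0.16 to 0.07). The sign of these 3 small differences changed with the scaling.

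Levels of different genes were compared as CPM per kb of exon, scaled over the 18 libraries. The length of a gene was that of the merged exons of all its annotated transcripts, not of the transcripts present in these cells. For Tfe3 it was 9261 bases, in a gene spanning 7762560 to 7775202. The orders and shares below depend on that choice, and other lengths were not tried. Rragc led in both 4T1 groups (38.5 ± 0.348 with sildenafil, 28.7 ± 0.554 in control, SD, n = 3) and both MC38 groups (39.4 ± 1.50 and 34.2 ± 0.273). In LLC Gpnmb led with 120 ± 4.20 in sildenafil and 79.0 ± 3.66 in control libraries, above Rragc with 40.2 ± 1.16 and 33.5 ± 1.21. The control order in 4T1 went from Rragc through Fnip1 (12.8 ± 0.166), Flcn (10.4 ± 0.412), Tfe3 (8.002 ± 0.0874), Fnip2 (5.91 ± 0.162) and Gpnmb (2.01 ± 0.0517) to Mitf (1.73 ± 0.0816) and Tfeb (1.65 ± 0.0884), whose ranges overlapped, and Rragd (0.0423 ± 0.0135). In MC38 controls it went from Rragc through Flcn (20.1 ± 0.577), Fnip1 (16.7 ± 0.194), Fnip2 (11.4 ± 0.363), Gpnmb (4.92 ± 0.182), Tfe3 (3.13 ± 0.0780) and Tfeb (1.07 ± 0.0757) to Mitf (0.614 ± 0.0537). LLC controls went from Gpnmb and Rragc through Fnip2 (17.2 ± 0.903), Fnip1 (12.1 ± 0.168) and Flcn (8.27 ± 0.477) to Rragd (3.13 ± 0.308) and Tfe3 (3.01 ± 0.220), whose ranges overlapped, Mitf (1.10 ± 0.192) and Tfeb (0.677 ± 0.0304). With sildenafil Gpnmb reached 6.38 ± 0.648 per kb in 4T1, within the range of Fnip2 (6.41 ± 0.207), and 13.02 ± 0.245 in MC38.

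**Figure D3:**
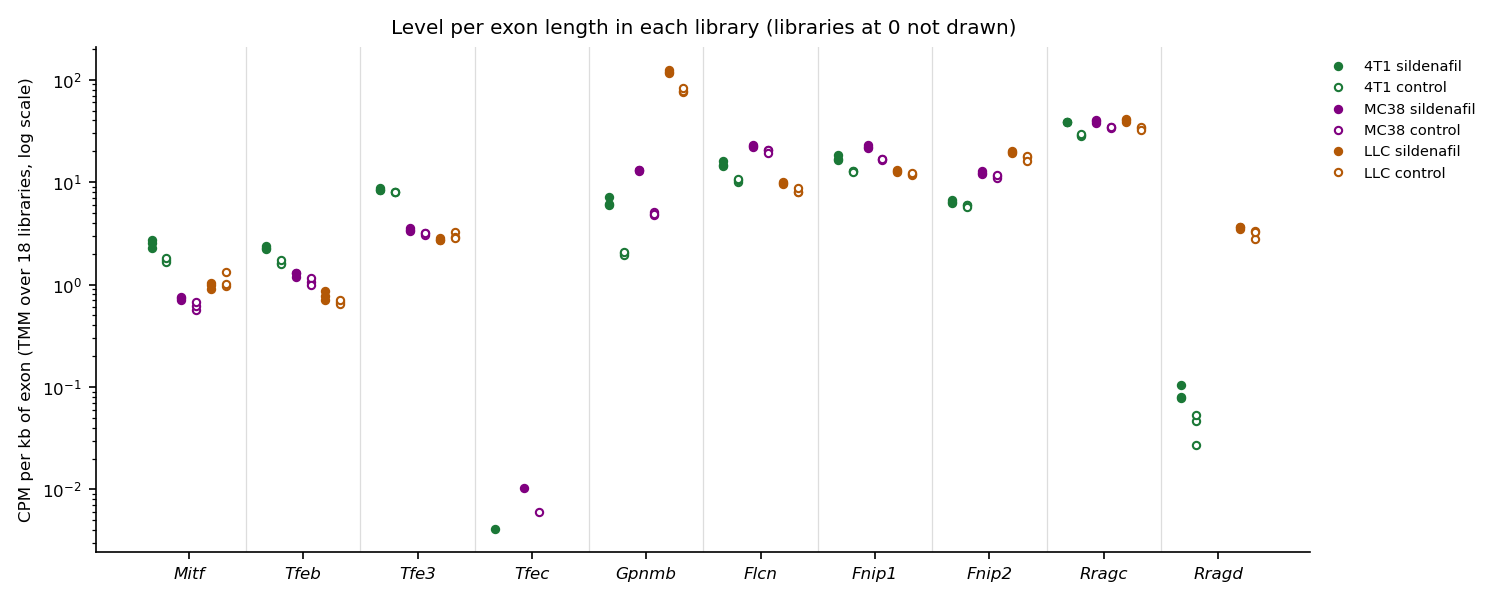
CPM per kb of exon for each gene in each of the 18 libraries on a log axis, coloured by line, filled for sildenafil and open for control; libraries at 0 are not drawn. Rragc lies within a narrow band, from 28.7 to 40.2 over the 6 group means, while Gpnmb runs from 2.01 in 4T1 control to 120 in LLC sildenafil libraries.

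Within the factor family Tfe3 made up most of the transcript per merged exon length in every group. Its share was 63.8% ± 0.928 with sildenafil and 70.3% ± 0.798 in control in 4T1 (SD, n = 3), with ranges that did not overlap. It was 63.1% ± 1.62 and 65.1% ± 1.50 in MC38, and 61.4% ± 1.50 and 63.0% ± 1.33 in LLC, with overlapping ranges. Mitf made up 19.0% ± 0.889 with sildenafil and 15.2% ± 0.419 in control in 4T1, and Tfeb 17.2% ± 0.0444 and 14.5% ± 0.459. Tfeb held the larger share of these 2 in MC38 (23.3% ± 1.34 and 22.1% ± 1.67, against 13.5% ± 0.389 and 12.7% ± 1.05 for Mitf), and Mitf the larger in LLC (21.5% ± 1.22 and 22.8% ± 2.01, against 17.2% ± 1.05 and 14.2% ± 1.35 for Tfeb). Of the folliculin partners, Fnip1 made up 73.0% ± 0.781 with sildenafil and 68.4% ± 0.317 in control in 4T1, 64.3% ± 0.441 and 59.3% ± 0.599 in MC38, but 39.6% ± 0.769 and 41.2% ± 1.42 in LLC, where Fnip2 was the larger. Rragd made up 8.20% ± 0.116 of the RagC and RagD transcript with sildenafil and 8.54% ± 0.874 in control in LLC, and 0.227% ± 0.0372 and 0.148% ± 0.0488 in 4T1.

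**Figure D4:**
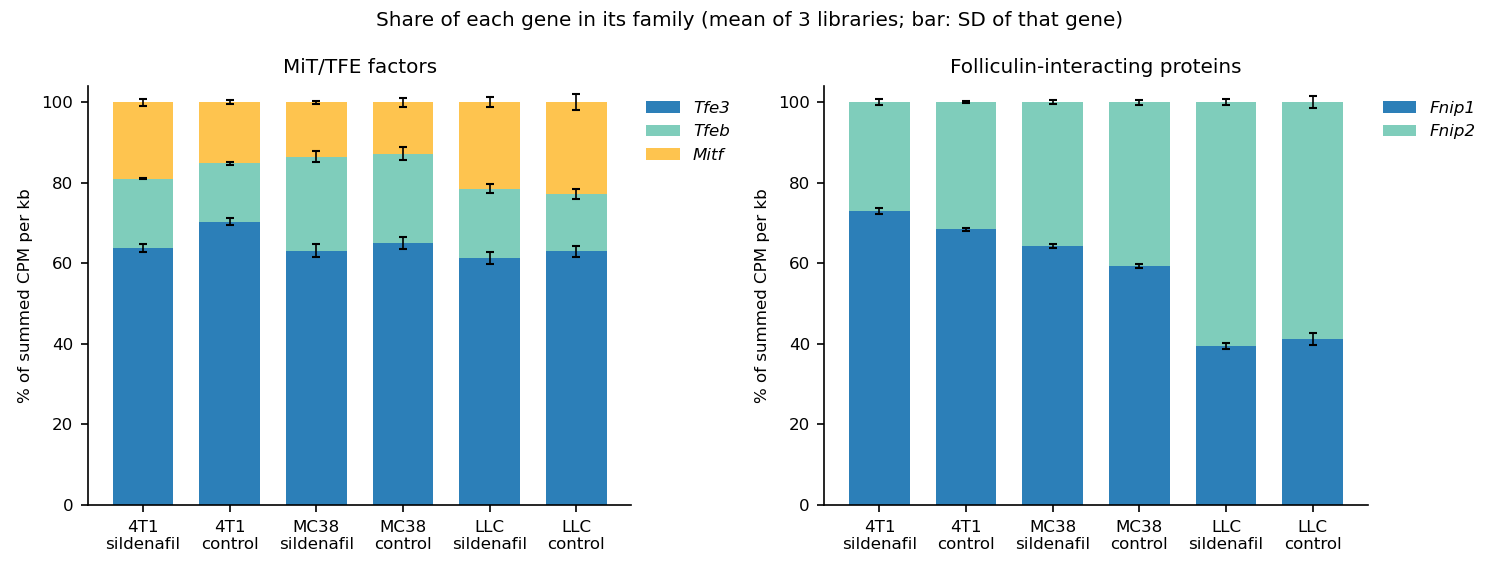
Share of each gene in the summed CPM per kb of its family, for the MiT/TFE factors and for the folliculin partners, as means of 3 libraries with the SD. Tfe3 fills 61.4% to 70.3% of the factor bar in all 6 groups, and Fnip1 has the larger part in 4T1 and MC38 but not in LLC.

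Genes around the set were read from lists of the same pathway. Of 29 textbook lysosome and autophagy targets of TFEB and TFE3, 24 of the 28 tested rose and 1 fell in 4T1 (median 0.59), 27 of 28 rose and 0 fell in MC38 (median 0.36), and 19 of 29 rose and 0 fell in LLC (median 0.25). Over all genes the shares higher and lower were 33.5% and 33.3% in 4T1, 19.5% and 18.3% in MC38, and 15.1% and 12.2% in LLC. In 4T1 those with the smallest p were Gabarap, an autophagosome protein (1.05 ± 0.0290), the protease cathepsin D gene Ctsd (0.92 ± 0.0280), the sialidase gene Neu1 (1.40 ± 0.0472) and Map1lc3b, which encodes the autophagosome marker LC3B (0.98 ± 0.0342). In MC38 they were Ctsd (0.69 ± 0.0296), Ctsa (0.58 ± 0.0342), Neu1 (0.77 ± 0.0501) and Map1lc3b (0.46 ± 0.0299). In LLC they were Psap, which encodes the saposins (0.45 ± 0.0458), Ctsd (0.46 ± 0.0503), Map1lc3b (0.43 ± 0.0472) and the lysosomal membrane gene Lamp2 (0.37 ± 0.0423). With the Gm26917 covariate 10 of the 28 rose in 4T1 and 15 of the 28 in MC38, and without LLC control replicate 3, 20 of the 29 rose and 1 fell in LLC. The shares above do not apply to these fits. Of all genes they called 1189 in 4T1, 1027 in MC38 and 5994 in LLC, in either direction.

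The upstream list of Rag, Ragulator, mTORC1, GATOR and sestrin genes moved in both directions. In 4T1 14 of 31 tested rose and 7 fell (median 0.09), against 33.5% of all genes higher and 33.3% lower. In MC38 10 of 31 rose and 3 fell (median 0.05), against 19.5% and 18.3%, and in LLC 6 of 30 rose and 4 fell (median 0.02), against 15.1% and 12.2%. Without LLC control replicate 3, 10 of the 30 rose and 7 fell in LLC, without LLC control replicate 2 the counts were 4 and 1, and without MC38 control replicate 1 they were 7 and 1 in MC38. With the Gm26917 covariate 3 rose and 0 fell in 4T1, the same numbers in MC38, and 5 and 0 in LLC. The shares of all genes in this paragraph are those of the fits as reported, not of these alternatives. With the covariate 1189, 1027 and 2279 of all genes were called in 4T1, MC38 and LLC. Without LLC control replicate 3 the number was 5994 in LLC. The sestrin genes, whose proteins restrain mTORC1, did not all move one way. Sesn3 rose by 1.61 ± 0.0470 and Sesn1 by 0.92 ± 0.0513 in 4T1, while Sesn2, named after its values were seen, fell by 0.47 ± 0.0345 in 4T1 and by 0.54 ± 0.107 in LLC. In 4T1 Castor2 rose (1.05 ± 0.0689) and Itfg2, a subunit of the KICSTOR complex, fell by 0.88 ± 0.0591. In MC38 Sesn2 rose by 0.55 ± 0.0478, Sesn1 by 0.39 ± 0.0458, Sesn3 by 0.37 ± 0.0567 and the Ragulator subunit gene Lamtor1 by 0.38 ± 0.0432. In LLC Lamtor4 rose by 0.58 ± 0.0744, Sesn1 by 0.46 ± 0.0679, the mTORC1 subunit gene Mlst8 by 0.45 ± 0.0692 and Lamtor1 by 0.36 ± 0.0552. Of 13 genes for other regulators of the factors, 4 rose and 7 fell in 4T1 (median -0.11), 4 rose and 4 fell in MC38 (median -0.03), and 2 rose and 1 fell in LLC (median 0.02), against the same shares of all genes. With the Gm26917 covariate 1 rose and 1 fell in 4T1 and 0 and 2 in MC38, and in LLC 4 rose and 2 fell without control replicate 3 and 3 and 3 when all 18 libraries were fitted together. Mcoln1, the lysosomal calcium channel upstream of calcineurin, rose by 0.72 ± 0.0448 in 4T1 and by 0.36 ± 0.0493 in MC38, and the calcineurin subunit gene Ppp3ca rose by 0.22 ± 0.0294 in MC38 and 0.37 ± 0.0423 in LLC. Further values of these genes were added after they were seen. Ppp3ca also rose in 4T1 (0.17 ± 0.0305), and Mcoln1 was not called in LLC (-0.02 ± 0.110). Ppp3cb, another calcineurin subunit gene, fell by 0.11 ± 0.0283 in 4T1 and by 0.19 ± 0.0413 in MC38. In 4T1 the kinase genes Mapk3 (0.80 ± 0.0321) and Map4k3 (0.28 ± 0.0354) rose and the nuclear export gene Xpo1 fell by 0.39 ± 0.0279. In MC38 Akt1 fell by 0.26 ± 0.0295 and the ubiquitin ligase gene Stub1 rose by 0.22 ± 0.0347, and in LLC Stub1 rose by 0.26 ± 0.0422 and Ppp3cb fell by 0.33 ± 0.0775. Of the AMPK subunit genes, 1 of 5 tested rose (Prkag1, 0.12 ± 0.0410) and 1 fell (Prkab1, by 0.27 ± 0.0434) in 4T1, 0 of 6 rose and 1 fell (Prkag3, by 0.97 ± 0.346) in MC38, and 2 of 6 rose (Prkag1, 0.44 ± 0.0588, and Prkab1, 0.25 ± 0.0625) and 1 fell (Prkaa2, by 0.74 ± 0.131) in LLC. Prkag3 lay close to the minimum of the filter on low counts in MC38 (0.308 ± 0.126 CPM with sildenafil, 0.615 ± 0.0363 CPM in control, SD). Its higher, control group met that filter, so the value is a description only. In 4T1 the rise was lost without control replicate 1 or 2 or sildenafil replicate 1 or 2. The MC38 count was 0 in DESeq2, without control replicate 1 or 3 or sildenafil replicate 2 or 3, and 2 lower with RLE factors, protein-coding genes alone or the replicate block. With the Gm26917 covariate 0 were called in 4T1 and in MC38. The shares of all genes given for the Rag list apply to the AMPK counts as reported, not to those under the alternatives.

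**Figure D5:**
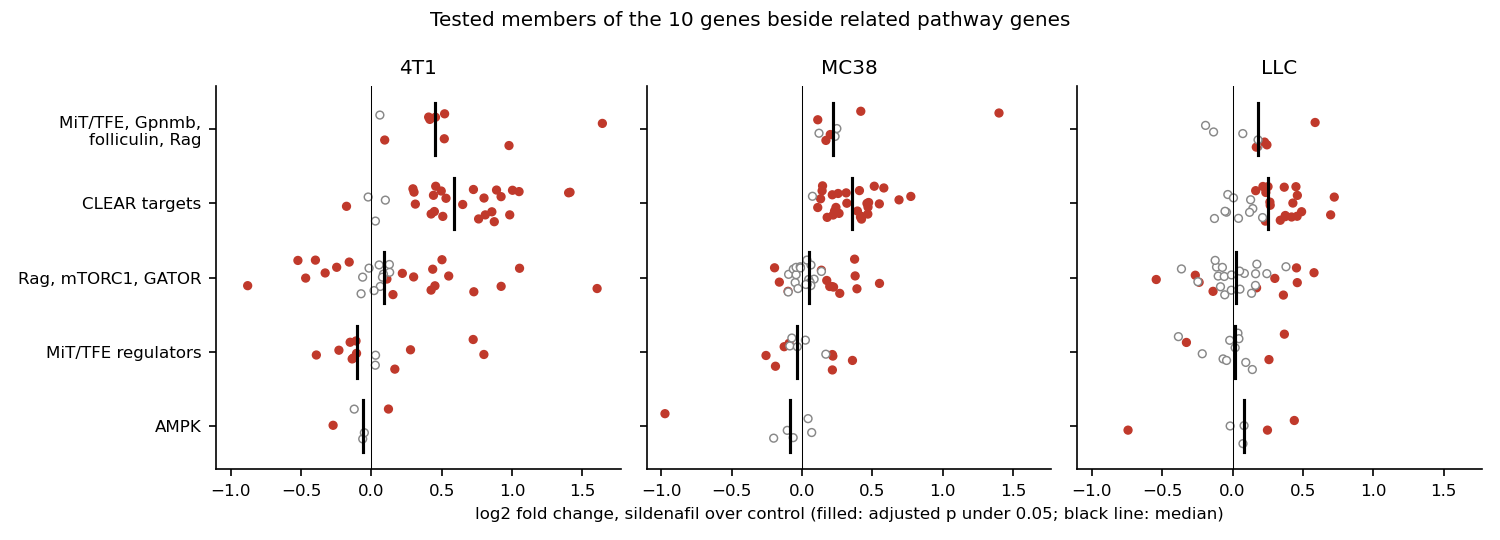
Log2 fold change, sildenafil over control, of each tested gene of the set and of the 4 pathway lists in each line; filled points have an adjusted p under 0.05 and black lines are medians. The lysosome and autophagy targets (CLEAR targets, after the E-box-like element they share) lie mostly right of 0 in every line, with medians of 0.59, 0.36 and 0.25, and the Rag, Ragulator and mTORC1 list straddles 0.

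Over the 18 libraries the genes with the pattern most like Gpnmb, by Pearson's correlation of log2 CPM among 10207 genes, were Sgtb (0.993), the autophagy gene Gabarapl1 (0.991) and Hp1bp3 (0.990). Those most like Flcn were Mfsd11 (0.995), Fbxo2 (0.989) and the retromer gene Vps35 (0.986). Those most like Rragd were Dclk1 (0.997), Srpk2 (0.994) and Arnt (0.994), and those most like Mitf were Rnf5 (0.986), B4galt1 (0.985) and Dip2a (0.984). The points share their line and their depth, and most of each pattern is the difference between 3 lines.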

How the data were processed

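RNA from 18 libraries, 3 in each of 6 groups, was made into libraries with a stranded polyA kit and read from both ends for 100 cycles, per the labels' protocols. The authors deposited 1 table of expected counts for each gene and library, which their processing notes tie to RSEM 1.3.1, STAR 2.7.0f, cutadapt 1.18, bcl2fastq 2.17 and the build mm10. Which annotation release and which strand setting they used is not given in the sources used here. All 55450 identifiers matched GENCODE M21, from which positions and exon lengths (merged exons of all annotated transcripts of a gene) were taken.

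Expected counts were rounded to whole numbers and tested in R 4.3.3 with edgeR 4.0.16 (factors by TMM, default filter with a minimum count of 10, robust quasi-likelihood F test), with Benjamini-Hochberg adjustment over all genes tested and a threshold of 0.05. Each line was fitted on its 6 libraries (4 residual degrees of freedom), response differences on all 18 with 1 coefficient per group, and baselines on the 9 control libraries. An SE was taken as the absolute log2 fold change over the root of its F. CPM is TMM-scaled within the line unless said to be over the 18 libraries. Single ratios were compared with an exact permutation test. The floor of an undetected gene is 3 counts over the group, and covers counting error only.

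The 10 genes, the pathway and marker lists and the rule for naming genes (all 10, and up to 4 called genes with the smallest adjusted p per pathway list and line) were chosen with earlier results of these data known. Alternatives were DESeq2 1.42.0, RLE factors, library totals alone, no filter, a filter of 5 CPM in 3 libraries, protein-coding genes alone, the replicate number as a block, the level of Gm26917 as a covariate, other sets of libraries in the fit and each library left out. Running them on the pathway lists was added after seeing the data. The tests were also run on simulated counts in which few genes changed and all genes had the same dispersion. The real lines had many changed genes and an outlying LLC control, so that run does not check the tests under such conditions. Plots were drawn with matplotlib 3.10.9.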

Additional observations from a re-analysis of the deposited data

Results flagged for a closer look

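The responses of several genes differed between lines by a test of the difference itself (edgeR quasi-likelihood test on 18 libraries, adjusted over 16040 genes). Between LLC and 4T1 the difference in log2 fold change was -0.712 for Mitf, -0.196 for Tfe3, -1.06 for Gpnmb, -0.292 for Flcn, -0.343 for Fnip1 and -0.163 for Rragc. The value of -0.786 for Rragd is a description only, given its low counts in 4T1. Mitf and Tfe3 had a value below 0 in LLC and above 0 in 4T1, although neither LLC value passed within the line. Between LLC and MC38 the difference was -0.240 for Tfe3, -0.798 for Gpnmb and -0.330 for Fnip1. Between MC38 and 4T1, both treated for 24 hours, it was -0.258 for Gpnmb, -0.364 for Flcn and -0.222 for Rragc.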

How the results depend on the processing

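Of 1237 repeats of a single gene's value under another setting, 1137 kept their direction and their side of the threshold, 45 lost the call, 21 gained it and 34 changed sign, all 34 of them in values not called as reported or in 4T1 with the Gm26917 covariate. Gpnmb kept its call within every line under all alternatives. With the Gm26917 covariate the count of genes of the set called was 1 of 9 in 4T1, 2 of 8 in MC38 and 3 of 9 in LLC. All genes called were 1189 of 13914 in 4T1, 1027 of 13363 in MC38 and 2279 of 13561 in LLC. In 4T1 Mitf (-0.22), Tfe3 (-0.13), Fnip1 (-0.0665), Fnip2 (-0.0539) and Rragd (-0.21) turned negative with the Gm26917 level in the fit. That level moved with treatment, so the covariate takes up much of the contrast. Leaving out each library in turn gave 6 to 8 genes of the set and 8615 to 9564 of all genes in 4T1, 4 to 5 and 4026 to 4645 in MC38, and 2 to 6 and 1841 to 5994 in LLC, the last without control replicate 3. For response differences it gave 5 to 8 (6237 to 7229 of all genes) in LLC minus 4T1, 2 to 4 (2899 to 4696) in LLC minus MC38 and 2 to 3 (5014 to 5273) in MC38 minus 4T1, and for baselines 8 (13227 to 13662), 6 (11583 to 12295) and 8 (12823 to 12884). These counts of the set include Rragd where it was tested.

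Values near 0 changed sign. Tfeb in LLC minus MC38 ran from -0.117 to 0.0295 with single libraries left out. Fnip2 in MC38 minus 4T1 became -0.0294 with library totals alone, -0.0085 with the stricter filter, -0.0053 with protein-coding genes alone and -0.0306 to 0.0257 with libraries left out, where Fnip1 ran from -0.0508 to 0.0325. At baseline, Fnip1 in LLC against 4T1 became 0.0088 in DESeq2, 0.0090 with RLE factors, 0.0557 with the stricter filter, 0.0143 with protein-coding genes alone and -0.0611 to 0.0060 with libraries left out. Tfe3 in LLC against MC38 became 0.0036 in DESeq2 and with RLE factors, 0.0390 with library totals and 0.0213 with protein-coding genes alone. Rragc there became 0.0315 in DESeq2, 0.0318 with RLE factors, 0.0681 with library totals, 0.0236 with the stricter filter, 0.0496 with protein-coding genes alone and -0.0312 to 0.0141 with libraries left out. Library totals alone moved the median of all genes in MC38 against 4T1 controls to -0.10, against 0.04 as reported. The cause of these shifts was not tested.

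Same-numbered libraries deviated together weakly at most, and the numbers were not taken as pairs. Correlations ran from -0.02 to 0.14 for the same number and from -0.12 to 0.07 for different numbers. With the replicate number as a block, edgeR called 7 of 9 tested genes of the set in 4T1 (Fnip2 lost, adjusted p = 0.0682). It called 6 of 8 in MC38 (Tfe3 gained, adjusted p = 0.0379) and 4 of 9 in LLC, and no call of a response difference changed. The share of all genes called in the block fits is not given here, so these counts are not set beside it. Tfec in every line, and Rragd in 4T1 and MC38, had few or no counts, and the part of depth in this was not tested.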
